A study of Mus musculus with 6 samples.

Results

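The genes of the constitutive proteasome were followed in hippocampal RNA of mice that carry 2 amino acid changes of the glutamate transporter GLT-1. They were taken as the protein-coding genes whose symbols begin with Psma, Psmb, Psmc or Psmd and a number, without the immunoproteasome genes Psmb8, Psmb9 and Psmb10. This gave 37 of the 54532 genes in the table. Of these, 31 encode subunits of the 26S proteasome, 3 encode chaperones of its assembly (Psmd5, Psmd9 and Psmd10) and 2 encode tissue-specific subunits (Psma8 and Psmb11). The remaining gene, Psmc3ip, shares the prefix by its name alone, since its product is a meiotic recombination factor that is no proteasome subunit.

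The 3 TG mice bear the G82R and L85P changes in Slc1a2, which encodes GLT-1, as a knock-in made with CRISPR/Cas9 in exon 3 on the C57BL/6N background, and the 3 WT mice are wild-type littermates. The age of these mice, and whether they carried the changes on 1 or both alleles, were not given in the sources used here. Every library is RNA of hippocampal tissue with all its cell types, so fewer cells of a type and less RNA per cell cannot be told apart. Reads on genes ranged from 16081281 to 18751057 per library, and each 26S subunit gene had between 630 and 4056 reads in each library. Slc1a2 itself had 202.5, 199.5 and 177.3 FPKM (fragments per kilobase of gene, scaled to library size) in WT1 to WT3, against 222.0, 207.1 and 217.3 in TG1 to TG3, and these values hold no bases from which the changes could be read. The labels call the libraries separate mice, and p-values measure the spread between these 6 libraries.

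The 26S proteasome degrades proteins that carry ubiquitin chains. Its 20S core is a barrel of alpha rings, which form the gate, and beta rings, which hold the proteolytic sites of Psmb5, Psmb6 and Psmb7. The 19S regulator sits on the end of the core, where a ring of ATPases unfolds the substrate, scaffold subunits bind ubiquitin, and a lid removes the ubiquitin chain. The subunits are needed in fixed proportions, and the transcription factor Nfe2l1 (NRF1) is known to raise their genes together through antioxidant response elements in their promoters. In neurons, proteasomes also act at synapses, where protein turnover shapes plasticity.

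Promoter sequences of the RefSeq annotation (GRCm38.p6, 250 bases before to 50 bases after a start) covered 25 of the 31 subunit genes with 27 windows. The core of the antioxidant response element, TGACNNNGC on either strand, stood in 4 windows, those of Psmb5, Psmb6, Psmc6 and Psmd12, which are shown because this element is the one through which the family is known to be regulated as a group. The capitals mark the element, and each sequence reads 5′ to 3′ on the strand of its gene. Up to 20 bases are shown on each side and none after the RefSeq start. This start can differ from that of the expression table, where Psmb5 ends at 54618022, inside the stretch shown.
Psmb5 (chr14:54618014-54618062, minus strand): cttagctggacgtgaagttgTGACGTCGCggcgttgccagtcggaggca
Psmb6 (chr11:70525328-70525356, plus strand): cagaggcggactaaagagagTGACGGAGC
Psmc6 (chr14:45329577-45329625, plus strand): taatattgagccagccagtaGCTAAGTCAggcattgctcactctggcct
Psmd12 (chr11:107479278-107479309, plus strand): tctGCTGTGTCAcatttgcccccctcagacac
The share was 14.8% of the subunit windows and 12.4% of all 32851 windows, so these letters were about as frequent in the family as in any promoter. TGACTCA, on either strand, stood in 0 of the 27 windows and in 5.20% of all windows. CCAAT, on either strand, stood in 10 of the 27 subunit windows and in 37.4% of all. The 3 motifs were chosen with the expression values in view, and their matches are a description of the letters.

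Most of the 36 genes tested had a slightly lower mean in TG than in WT mice, and 0 of them passed the test over all genes. The median log2 fold change (TG minus WT, on log2(FPKM + 0.1)) over the 36 genes tested was -0.16, against -0.002 over all 20952 genes tested. This is a median difference of -10.3%. The fold change was below 0 in 32 of the 36 genes (88.9%), where 50.4% of all genes tested were below 0. With limma and Benjamini-Hochberg adjustment over all genes, 0 of the 36 genes passed an adjusted p of 0.05, the smallest being 0.786, while 0.00955% of all genes passed. At an unadjusted p under 0.05, 5 genes (13.9%), namely Psma4, Psma6, Psmb5, Psmb7 and Psmc3ip, were lower in TG mice, against 2.78% of all genes, and 0 were higher, against 3.13%. Limma-voom on the recovered reads also passed 0 genes after adjustment and 6 lower genes before it. All 3 TG libraries lay below all 3 WT libraries for 11 genes (30.6%), against 5.71% of all genes, and above them for 0 genes, against 6.35%. Psmb11 had a mean FPKM under 0.1 and was not tested.

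A single WT library carried much of this difference. WT3 had the highest value of the 6 libraries in 29 of the 31 subunit genes, the exceptions being Psmd3 and Psmd11. Among all protein-coding genes tested, WT3 was highest in 27.9% and lowest in 28.0%. TG1 was lowest in 15 of the 31 subunit genes (48.4%), against 19.8% of all protein-coding genes tested. The 31 genes summed to 1112, 1066 and 1329 FPKM in WT1 to WT3, against 997.8, 1064 and 1043 in TG1 to TG3, so WT2 and TG2 were nearly equal and WT3 stood alone. The mean sum was 1169 ± 140.3 for WT and 1035 ± 33.9 for TG (SD, n = 3 each). The SD was larger in WT than in TG mice for 27 of the 31 genes. The share over all genes was not computed, so this count cannot be called particular to the subunit genes. Without WT3, the median log2 fold change of the 36 genes was -0.06.

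The libraries also differed in other tissue. The summed FPKM of 15 choroid plexus markers was 83.4 to 112 in WT libraries, whereas TG1 reached 1350, TG2 reached 4210 and TG3 stood at 93.2. The summed FPKM of 6 oligodendrocyte markers was 506 (WT3) to 648 in WT libraries, against 403 for TG1, 549 for TG2 and 593 for TG3. The 9 markers of hippocampal neurons summed to 960 to 961 in WT libraries and 906 to 1020 in TG libraries, so neuronal genes were present in every library. Single neuronal markers differed more than the WT sums. WT3 was the lowest WT library for Slc17a7 (237.3 FPKM) and the highest for Snap25 (300.8). The 6 astrocyte markers summed to 449 to 508 in WT and 448 to 476 in TG libraries. Microglia markers (6) summed to 127 to 143 in WT and 116 to 158 in TG libraries, endothelial markers (4) to 42.1 to 47.4 and 44.7 to 49.0, and red blood cell markers (5) to 143 to 202 and 159 to 165. None of these markers was at 0 in all libraries. The part of these markers in the proteasome values was not tested.

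**Figure D1:**
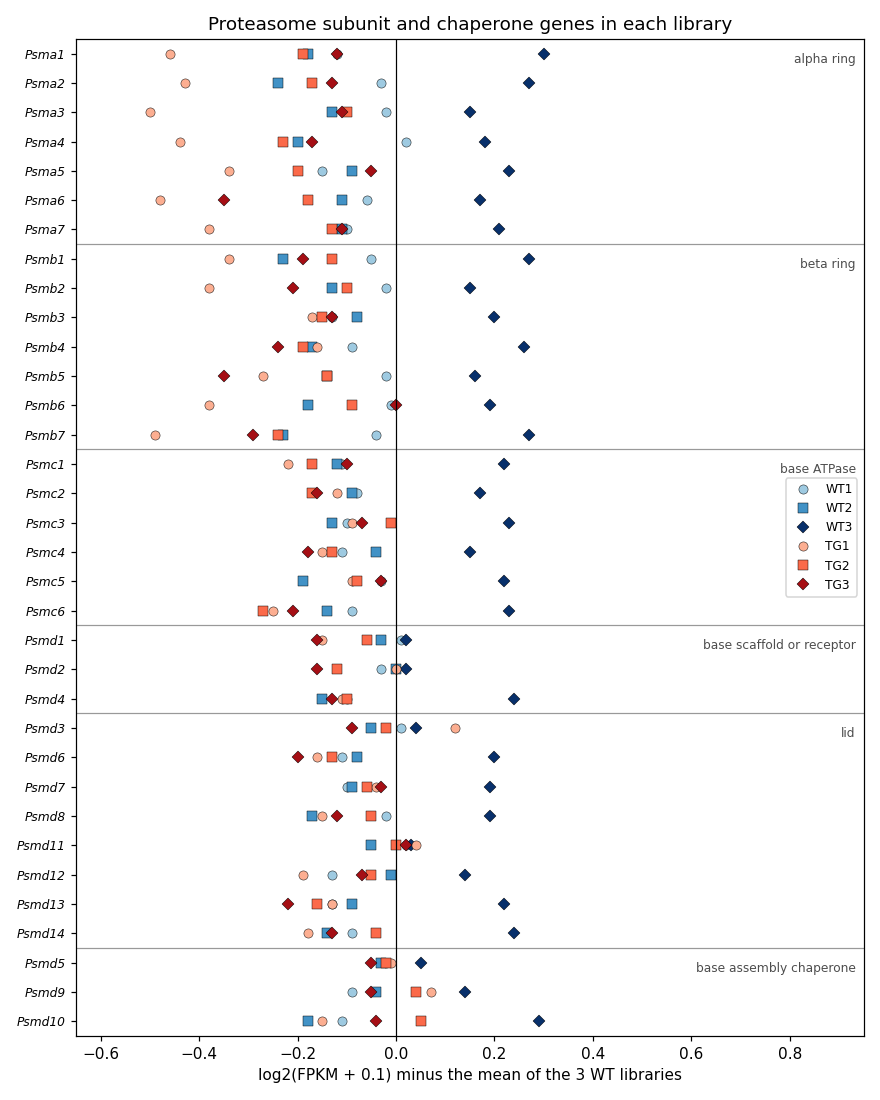
Each row is a subunit or assembly chaperone gene and each point a library, placed by its log2(FPKM + 0.1) minus the mean of the 3 WT libraries, with lines between subcomplexes. WT3 (dark blue diamonds) lies to the right in nearly every row, TG1 (pale circles) lies far to the left in most alpha and beta ring genes, and WT1, WT2, TG2 and TG3 lie close together in most rows.

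The levels of the subunit genes were not equal. On the FPKM scale, which divides reads by the annotated length of the gene, the WT means of the 31 genes spanned a ratio of 14.1 between the highest (Psmb5, 104.5) and the lowest (Psmd11, 7.42). Psmb5 has the shortest annotated length of the family (899 bases) and Psmd11 one of the longer ones (6383 bases), and whether these lengths fit the transcripts present in the hippocampus was not tested. The ratio was 6.02 within the 20S core and 12.4 within the 19S regulator, and 20 of the 31 genes had a WT mean between 20 and 50 FPKM. In the order of WT means within each subcomplex the 31 genes made 26 pairs of neighbours. The WT ranges overlapped in 14 of these pairs, so the order of those neighbours was not resolved, and 23 of the 26 pairs stood in the same order in TG mice. In the beta ring, Psmb5 was above Psmb4 (72.7 FPKM) and Psmb4 above Psmb2 (43.9) without overlap, whereas Psmb2 and Psmb6 (42.1) overlapped. In the lid, the genes from Psmd6 (28.6 FPKM) down to Psmd13 (21.9) overlapped from each to the next, and Psmd11 stood apart below them.

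**Figure D2:**
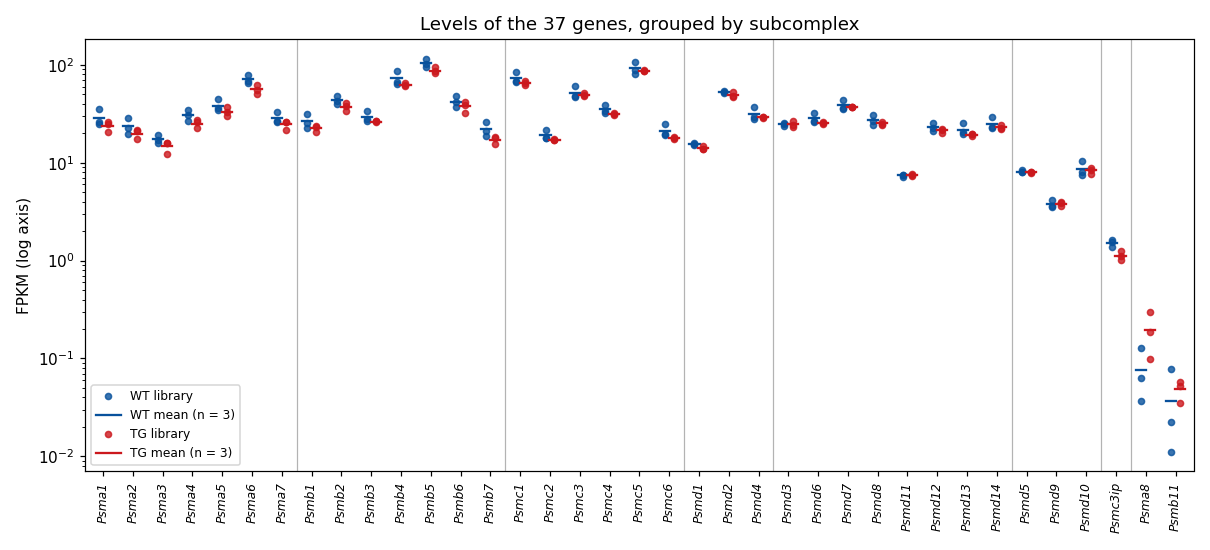
The FPKM of each of the 37 genes is plotted on a log axis, with 1 point per library (WT blue, TG red), a short line at the mean of 3 libraries, and vertical lines between subcomplexes. WT and TG points overlap or touch for most genes, subunit genes lie mostly between 20 and 50 FPKM, and Psmc3ip, Psma8 and Psmb11 lie far below the others.

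The alpha ring had 7 of 7 genes below 0, with a median log2 fold change of -0.24 and a range from -0.34 to -0.20. Psma6, the most abundant of them, had 68.1, 65.7 and 79.8 FPKM in WT1 to WT3, against 50.8, 62.7 and 55.5 in TG1 to TG3. The groups did not overlap, with TG1 lowest and WT3 highest. The log2 fold change was -0.34 (SE 0.108, limma adjusted p = 0.786). Psma6 lies on chromosome 12 from 55384222 to 55418454 (GRCm38). Psma4, the other alpha gene with an unadjusted p under 0.05, had 30.9, 26.5 and 34.6 FPKM in WT mice and 22.5, 26.01 and 27.1 in TG mice, where WT2 lay below TG3 so that the groups overlapped (log2 fold change -0.28, SE 0.115, limma adjusted p = 0.786). Psma3, the least abundant gene of the ring, had 17.03, 15.8 and 19.2 FPKM against 12.2, 16.1 and 16.1. Of the TG values of Psma3, TG1 alone lay below all WT values, and the log2 fold change was -0.24 (SE 0.129). The other alpha genes, Psma1, Psma2, Psma5 and Psma7, had log2 fold changes from -0.26 to -0.20 and overlapping groups. Of the 50-base stretches of Psma5, 49.1% also occur in another gene, most often the pseudogene Gm8394, so its reads may be split with such copies.

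The beta ring, which holds the proteolytic sites, also had 7 of 7 genes below 0, with a median log2 fold change of -0.22. Psmb5, which carries the chymotrypsin-like site, had values of 102.5, 94.8 and 116.2 FPKM in WT mice and 86.5, 94.4 and 81.7 in TG mice. The groups were apart by the small gap between WT2 and TG2 (log2 fold change -0.25, SE 0.0982, limma adjusted p = 0.786). Psmb5 lies on chromosome 14 from 54614119 to 54618022 (GRCm38), and 54.1% of its 50-base stretches occur in another gene. This is most often the pseudogene Gm3375, which was itself at 1.63 to 2.59 FPKM. Psmb7, which carries the trypsin-like site, had 21.3, 18.6 and 26.3 FPKM in WT mice and 15.6, 18.5 and 17.8 in TG mice. Here too WT2 and TG2 almost met (log2 fold change -0.34, SE 0.133, limma adjusted p = 0.786). Psmb7 (chromosome 2, 38588036 to 38644087) overlaps Nek6 on the opposite strand, which had up to 4.67 FPKM, and counting was not stated to use strand. Psmb6, which carries the caspase-like site, had 41.4, 37.01 and 47.8 FPKM in WT mice and 32.1, 39.3 and 41.7 in TG mice, and the groups overlapped with TG3 above WT1 (log2 fold change -0.16, SE 0.129, limma adjusted p = 0.790). Psmb3 was also apart, at 26.8, 27.8 and 33.7 FPKM against 26.1, 26.4 and 26.7 (log2 fold change -0.15, SE 0.0946). Psmb1, Psmb2 and Psmb4, which like Psmb3 carry no proteolytic site, overlapped between groups, with log2 fold changes from -0.23 to -0.20.

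All 6 ATPases of the base were below 0, with a median log2 fold change of -0.15. Psmc5, the most abundant, had 89.5, 80.4 and 106.3 FPKM in WT mice and 85.9, 86.6 and 89.5 in TG mice. The TG values lay inside the WT range, and the log2 fold change was -0.07 (SE 0.106, limma adjusted p = 0.880). Without WT3 it was 0.04, so its direction rested on that library. Psmc2, the least abundant, had 17.9, 17.9 and 21.4 FPKM against 17.4, 16.9 and 17.01, with the groups apart by a gap smaller than the spread of the WT values (log2 fold change -0.15, SE 0.0859). Psmc4 and Psmc6 were also apart, with log2 fold changes of -0.16 and -0.24 (SE 0.0808 and 0.104).

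Among the 3 other base subunits, Psmd2 and Psmd1 are the large scaffolds and Psmd4 is a ubiquitin receptor. Psmd2 had 51.9, 52.9 and 53.7 FPKM in WT mice and 52.8, 48.5 and 47.4 in TG mice (log2 fold change -0.09, SE 0.0675). In this gene WT3 was no more than a little above the other WT libraries, and TG1 lay inside the WT range. Psmd1 had 15.6, 15.2 and 15.8 FPKM against 13.97, 14.9 and 13.9. The groups were apart, the WT values had an SD of 0.267, and the log2 fold change was -0.13 (SE 0.0639, limma adjusted p = 0.789). Psmd4 had a log2 fold change of -0.11 with overlapping groups.

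The median log2 fold change of the 8 lid genes was -0.11, and Psmd3 (0.01) and Psmd11 (0.02) were above 0. Both had a fold change below 0 when each library was centred on its median or corrected for gene length. Psmd7, the most abundant, is the partner of the deubiquitinase Psmd14. It had 35.7, 36.1 and 43.7 FPKM in WT mice and 37.3, 36.8 and 37.6 in TG mice, so all TG values lay above WT1 and WT2 and below WT3 (log2 fold change -0.04, SE 0.0895). Psmd11, the least abundant, had 7.52, 7.17 and 7.57 FPKM against 7.61, 7.41 and 7.55, and its groups overlapped, with TG1 highest and WT2 lowest. Psmd6 and Psmd13 were apart, with log2 fold changes of -0.16 and -0.17 (SE 0.0938 and 0.101). Psmd14 itself had a log2 fold change of -0.12 (SE 0.109).

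The 3 chaperones that assemble the base had a median log2 fold change of -0.03. Psmd10 (gankyrin) had 7.99, 7.59 and 10.5 FPKM in WT mice and 7.74, 8.92 and 8.41 in TG mice, with the TG values inside the WT range. Its log2 fold change of -0.05 (SE 0.133) was 0.10 without WT3. Psmd9 had 3.50, 3.63 and 4.13 FPKM against 3.93, 3.85 and 3.62, and its log2 fold change of 0.02 (SE 0.101) was below 0 with libraries centred on their median. Psmd5 had a log2 fold change of -0.03.

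The remaining genes stood at low levels. Psma8, an alpha subunit of the testis, had 0.128, 0.0366 and 0.0631 FPKM in WT mice and 0.187, 0.297 and 0.0981 in TG mice, which are 1 to 9 reads, and its log2 fold change of 0.72 (SE 0.453, limma adjusted p = 0.789) rests on these few reads. Psmb11, the subunit of the thymus, had values between 0.0112 and 0.0775 FPKM. Psmc3ip had 1.55, 1.64 and 1.38 FPKM in WT mice and 1.25, 1.11 and 1.01 in TG mice, with the groups apart (log2 fold change -0.41, SE 0.152, limma adjusted p = 0.786). Its counts were 33 to 52 reads, it overlaps Mlx (9.86 to 11.2 FPKM) on the opposite strand, and WT3 was its lowest WT library, unlike in the subunit genes.

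The median log2 fold change lay further below 0 in the 20S core (-0.24) than in the 19S regulator (-0.11). All 14 core genes were below 0 and 4 had an unadjusted p under 0.05, and of the 17 regulator genes 15 were below 0 and 0 had such a p in limma, against 1 in limma-voom. Over all genes tested, 50.4% were below 0 and 2.78% were lower at such a p. The split into core and regulator was set with the values in view, and no test was made of it. The median deviation of the core genes from the WT mean was -0.04, -0.15 and 0.21 in WT1 to WT3, against -0.38, -0.16 and -0.15 in TG1 to TG3, so TG2 and TG3 were level with WT2. For the regulator genes it was -0.09, -0.09 and 0.19 in WT mice and -0.13, -0.08 and -0.13 in TG mice. TG1 was lowest in 12 of the 14 core genes (85.7%) and in 3 of the 17 regulator genes (17.6%). It was lowest in 19.8% of all protein-coding genes tested, so the regulator share was near that of all genes.

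Inside a library, the ratio of summed core to summed regulator FPKM was 0.993, 0.951 and 1.002 in WT1 to WT3, against 0.837, 0.941 and 0.917 in TG1 to TG3. The mean ratio was 0.982 ± 0.0271 for WT and 0.898 ± 0.0546 for TG (SD, n = 3 each), and the groups did not overlap. WT3 was high in both sums, and its ratio was close to that of WT1. Without Psmb5 the ratio was 0.810, 0.778 and 0.827 against 0.677, 0.769 and 0.767, again without overlap. The ratio of geometric means, in which each gene counts alike, was 1.24, 1.18 and 1.28 against 1.03, 1.18 and 1.18, and there the groups overlapped. The difference between the median deviations of core and regulator also overlapped, at 0.05, -0.06 and 0.02 in WT mice and -0.25, -0.08 and -0.03 in TG mice. TG1 was the lowest by each of these measures. It also had the lowest sums of oligodendrocyte (403) and microglia (116) markers and a choroid plexus sum of 1350. TG2, with the highest choroid plexus sum (4210), had the highest ratio of summed FPKM among the TG libraries (0.941). WT3, with the highest ratio of summed FPKM, had the lowest oligodendrocyte sum of the WT libraries (506). The part of these markers in the ratio was not tested.

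**Figure D3:**
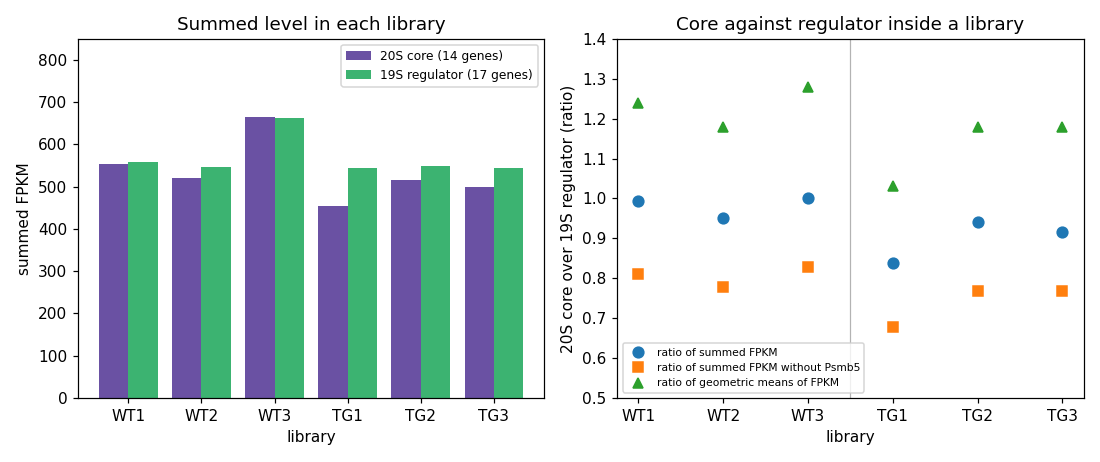
Left, bars from 0 give the summed FPKM of the 14 core genes and the 17 regulator genes in each library; right, points give 3 ratios of core to regulator in the same libraries. The regulator bars of TG1, TG2 and TG3 are nearly equal (543.2, 548.2 and 544.1), TG1 has the lowest core bar (454.5) and the lowest ratio by each measure, and WT2 and TG2 lie close in all 3 ratios.

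Leaving out 1 library at a time moved the medians. The core median was between -0.31 without WT2 and -0.11 without WT3, and it was -0.16 without TG1. The regulator median was between -0.17 without WT2 and -0.03 without WT3, where 11 of the 17 genes remained below 0. All 14 core genes were below 0 in each of the 6 leave-one-out fits. The number of the 36 genes that were lower at an unadjusted limma p under 0.05 was 2 without WT1, 8 without WT2, 2 without WT3, 2 without TG1, 3 without TG2 and 0 without TG3, against 5 with all libraries. Psma6 had a log2 fold change of -0.25 without WT3, with an unadjusted p still under 0.05, and of -0.27 without TG1, with a p above it. Without WT3, Psmb5 was at -0.17, Psmb7 at -0.21 and Psma4 at -0.19, each with an unadjusted p above 0.05. Over the 17 alternatives run, the unadjusted p was above 0.05 in 2 for Psma6, 6 for Psma4, 6 for Psmb7, 7 for Psmb5 and 7 for Psmc3ip. Beside left-out libraries, these included the fit with no trend in the variance for Psma4, Psmb5 and Psmb7, gene length correction and the replicate block for Psmb5, and limma-voom, a mean FPKM of at least 1 and gene length and GC correction for Psmc3ip. When libraries were corrected for the length and GC content of genes, an alternative added after seeing the data, the core median was -0.21 and the regulator median -0.12.

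**Figure D4:**
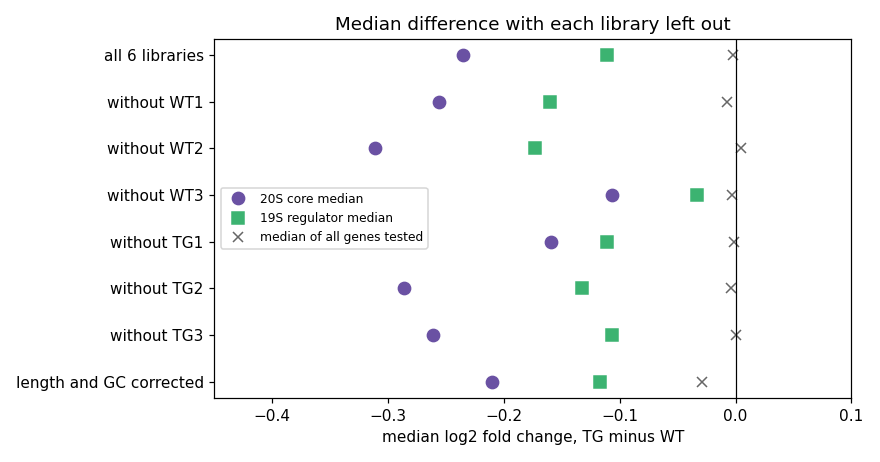
Each row is a fit with all 6 libraries, with 1 library left out, or with gene length and GC correction, and the points give the median log2 fold change of the core (circles), the regulator (squares) and all genes tested (crosses). Both proteasome medians lie left of the crosses in each row, and they come closest to 0 without WT3 (-0.11 for the core and -0.03 for the regulator).

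Across the 6 libraries the subunit genes moved together, which again rested on WT3. The median Pearson correlation over the 465 pairs of subunit genes was 0.815 with all libraries and 0.303 without WT3. It was 0.898 within the core (91 pairs), 0.797 within the regulator (136 pairs) and 0.793 between them (238 pairs). Pairs share the same 6 libraries with their depth and tissue makeup, so these values are a description. The median for pairs of other genes was not computed. Psmb1 was most like the mean of the other subunit genes (r = 0.982), and Psmd3 (0.012), Psmd11 (0.137) and Psmd2 (0.372) were least like it. Of 11882 protein-coding genes outside the family, those most like its mean over the 6 libraries were Hnrnpk (r = 0.998), Tceal8 (0.998), Cnbp (0.997), Cct8 (0.997) and Ywhae (0.997). As the largest of 11882 values from 6 libraries each, these are high by selection. Their correlation without WT3 was not computed. Hnrnpk, which encodes an RNA-binding protein, had 55.5, 53.7 and 63.9 FPKM in WT mice and 49.8, 53.5 and 52.9 in TG mice, with WT3 highest and TG1 lowest.

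Other genes of the pathway were read from 7 lists of 45 genes, of which 44 were found and tested. With limma, 0 of the 44 passed the adjusted threshold, 3 were lower and 3 higher at an unadjusted p under 0.05 (6.82% each way, against 2.78% lower and 3.13% higher over all genes tested), and the median log2 fold change was -0.04.

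The 3 immunoproteasome subunits replace Psmb5, Psmb6 and Psmb7 under interferon. Psmb8 had 1.15, 0.9504 and 0.996 FPKM in WT mice and 1.59, 2.32 and 1.90 in TG mice, and Psmb9 had 0.532, 0.474 and 0.380 against 0.795, 0.945 and 1.18. Both were higher in each TG library than in each WT library (log2 fold change 0.84, SE 0.175, for Psmb8 and 0.93, SE 0.226, for Psmb9), with an unadjusted p under 0.05 and a limma adjusted p = 0.786 for both. Psmb10 had 18.8, 16.4 and 23.8 FPKM against 16.6, 18.9 and 18.4 and overlapped. Set against its constitutive partner, Psmb8 was 1.12%, 1.00% and 0.857% of Psmb5 in WT mice and 1.84%, 2.46% and 2.33% in TG mice. Psmb9 was 1.28%, 1.28% and 0.795% of Psmb6 and then 2.47%, 2.40% and 2.83%. Psmb10 was 88.4%, 87.9% and 90.6% of Psmb7 and then 107%, 102% and 103%. The groups did not overlap in any of the 3 ratios, and WT3, the highest library for the constitutive genes, did not stand out in the ratio of Psmb10 to Psmb7. Psmb10 itself was not higher in TG mice (log2 fold change -0.115), and its ratio was higher because Psmb7 was lower still (-0.339). Psmb8 had 42 to 114 reads and Psmb9 26 to 78. Of all genes tested, 6.35% had every TG library above every WT library, and no such share was computed for ratios. In both groups the FPKM of Psmb8 and Psmb9 was thus a small part of that of Psmb5 and Psmb6.

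Of the 5 chaperones of core assembly that were tested, Psmg4 had 14.03, 14.4 and 15.01 FPKM in WT mice and 10.4, 10.96 and 12.5 in TG mice. The groups were well apart, in WT3 as in the other WT libraries (log2 fold change -0.36, SE 0.0861, limma adjusted p = 0.786). Pomp, which matures the beta ring, had 14.3, 13.4 and 18.03 FPKM against 11.9, 13.6 and 12.9, and its groups overlapped as did those of Psmg2. Among the 5 activators and inhibitors, the PA28 gamma gene Psme3 was the most abundant, at 33.8 to 37.1 FPKM in WT and 33.6 to 34.4 in TG mice, and Psmf1, an inhibitor, had the smallest p of its list (limma adjusted p = 0.789).

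Among 9 other 26S subunits and associated enzymes, the deubiquitinase Usp14 had 19.1, 18.5 and 21.1 FPKM in WT mice and 16.7, 16.5 and 16.9 in TG mice, apart and with TG values close to each other (log2 fold change -0.22, limma adjusted p = 0.786). Akirin2, which brings proteasomes to the nucleus, was the most abundant of this list and overlapped (limma adjusted p = 0.858). Of 9 shuttle factors and p97 partners, Ufd1 had 17.03, 16.3 and 19.6 FPKM against 15.1, 14.9 and 15.3 and was also apart (log2 fold change -0.22, limma adjusted p = 0.786), while the most abundant, the ubiquitin shuttle Ubqln2, overlapped (limma adjusted p = 0.971). Among the 5 genes of the ubiquitin list, Ubb, the most abundant, had an adjusted p of 0.872, and Rps27a, the gene with the smallest p, spread from 36.0 to 95.7 FPKM over the WT libraries, highest in WT3.

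The 8 regulators of proteasome gene expression had a median log2 fold change of 0.11, opposite in sign to the subunits. Their median deviation from the WT mean was 0.07, 0.0 and 0.04 in WT1 to WT3, against 0.14, 0.03 and 0.1 in TG1 to TG3. The groups thus overlapped, with TG2 below WT1 and WT3. Ngly1 of this list was below 0 (log2 fold change -0.05). A link between the regulators and the subunit values was not tested. Nfe2l1 had 62.8, 58.8 and 60.5 FPKM in WT mice and 70.4, 64.5 and 63.7 in TG mice, apart by a small gap (limma adjusted p = 0.789). Ddi2, the protease that activates the NRF1 protein, had 6.24, 6.42 and 4.81 FPKM against 7.32, 6.85 and 7.19 (log2 fold change 0.30, limma adjusted p = 0.786). All TG values of Ddi2 were higher than the WT values, and WT3, the library with the highest subunit values, had the lowest Ddi2.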

How the data were processed

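Hippocampal RNA of 3 WT and 3 TG mice was sequenced by the authors, who counted reads per gene with HTSeq and deposited FPKM values computed from these counts and the gene lengths. The paper names Trizol and a NEBNext kit, and the labels name RNeasy and SMARTer kits. The submitters' processing notes name GRCm38 (mm10), the aligner is not given in the sources used here, and strand was not stated, so overlapping and antisense genes are uncertain. FPKM times gene length gave whole reads for 100% of values (tolerance 0.05 reads), and intervals from depth would cover counting error only. Of the 54532 gene identifiers, 54495 were found in GENCODE M21 and 53585 had the same position (36 of the 37 proteasome genes).

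WT and TG libraries were compared with limma (version 3.58.1, R 4.3.3; lmFit, eBayes with trend), two-sided and without covariates, on log2(FPKM + 0.1) for the 20952 genes whose mean FPKM reached 0.1. P-values were adjusted by Benjamini-Hochberg over all of them at a threshold of 0.05. Fold changes on this scale understate low genes. For a single value, 3 against 3 libraries give an exact permutation p of 0.1 at the smallest, and none was computed. Shared sequence is the percentage of a gene's 50-base stretches that another gene holds too. Summaries used Python 3.11.15, numpy 2.4.6, pandas 2.3.3 and matplotlib 3.10.9.

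The members, subcomplexes and lists were chosen with earlier results of these data known. Values per library are given for the proteolytic subunits, the most and least abundant tested gene of each subcomplex, genes with an unadjusted p under 0.05 and, for either direction, the 3 genes of smallest p. Of each pathway list, the gene with the smallest p, the most abundant gene and every gene with an unadjusted p under 0.05 are named. The 5 genes most like the family over the 6 libraries are named as well. Psmb2, Psmb3, Psmc4, Psmc6, Psmd6, Psmd13 and Psmd14 were named after their values were seen. Alternatives changed the pseudocount, filter, scaling, variance model, genes tested, model, replicate block and left-out library. The gene length and GC correction was added after seeing the data.

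The fit was tested on simulated libraries. A first criterion, on the share of changed genes called after adjustment, was not met, since many of the changed genes were missed with 3 against 3. It was replaced, after that result was seen, by criteria on the error rate among unchanged genes, the size of the estimates and unadjusted calls in well-covered genes, which were met. The code of the test was not altered. A count of 0 after adjustment is therefore weak evidence that values did not differ.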

Additional observations from a re-analysis of the deposited data

How the results depend on the processing

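The adjusted count for the proteasome genes was 0 and the count of higher genes at an unadjusted p under 0.05 was 0 in limma under each of the 17 alternatives run, and limma-voom was among them. The median log2 fold change stayed below 0 in all 17, from -0.21 without WT1 to -0.06 without WT3. The count of lower genes at an unadjusted p under 0.05 was 5, it was 2 with no trend in the variance, and it ranged from 0 (without TG3) to 8 (without WT2) when 1 library was left out. Over all genes, 2 passed the adjusted threshold; this was 0 with a pseudocount of 1 or 0.01, with no filter, with protein-coding genes only, in limma-voom and with the replicate block, 1 with a mean FPKM of at least 1, 9 with no trend in the variance, and 0 to 6 with 1 library left out, the 6 being without TG1. Without WT3, Psmc5 (0.042) and Psmd7 (0.053) reversed, where the lowest value of Psmc5 with 1 library left out was -0.159 and that of Psmd7 -0.091. Psmd10 reversed with gene length and GC correction (0.039) and, with 1 library left out, spanned -0.136 to 0.099. Psmd11 reversed with libraries centred on their median (-0.016), with gene length correction (-0.032) and with gene length and GC correction (-0.033), and spanned -0.004 (without WT2) to 0.035 with 1 library left out. Psmd9 reversed with libraries centred on their median (-0.015), with gene length correction (-0.04) and with gene length and GC correction (-0.055), and spanned -0.027 (without WT1) to 0.089 with 1 library left out, being also below 0 without WT2 or TG1. The cause of these changes was not tested. With the replicate number as a block, 6 of the 36 genes tested were lower at an unadjusted limma p under 0.05, and 5 of these encode 26S subunits. The median was -0.16. Same-numbered libraries deviated together by correlations of 0.013, 0.043 and 0.003, and differently numbered ones by -0.027 to 0.016. With 3 libraries per group, these values cannot tell whether the numbers pair the mice.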
